A study of Homo sapiens with 24 samples.

Results

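Keratin genes encode the intermediate filament proteins of epithelial cells. The 10 described here (KRT7, KRT8, KRT13, KRT15, KRT17, KRT18, KRT19, KRT20, KRT23 and KRT80) were selected by symbol from the 58735 genes of the count files, with earlier results of these data known. KRT23 was included with its higher level in UHRF1-AID/DNMT1-AID than in WT cells at day 0 already in view, so that contrast is given below as a description and nothing is read from it. The other members were taken as keratins of simple, mucosal or stressed epithelia.

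Keratin filaments are built from pairs of a type II and a type I protein, and the pair an epithelial cell makes depends on its tissue and its state. KRT8 and KRT18 are the basic pair of simple epithelia such as the lining of the gut, where KRT19 and KRT20 are further type I partners. Other keratins mark stratified, squamous or wounded epithelia, and desmosomes and plakins tie the filaments to the cell border.

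The RNA came from HCT116, a human colorectal cancer cell line, and 24 polyA libraries were sequenced in 8 groups of 3. UHRF1-AID/DNMT1-AID cells carry an auxin-inducible degron on both named proteins, UHRF1-AID and DNMT1-AID cells on 1 of them, and WT cells on neither. UHRF1 recognises hemimethylated DNA and DNMT1 is the maintenance DNA methyltransferase. The degron needs the plant receptor OsTIR1, which a doxycycline-inducible construct supplies in these cells. The 4 day 0 groups, 1 for each genotype, were collected before auxin was added. The 4 day 4 groups, 1 for each of the same genotypes, had 500 µM auxin with 2 µg/ml doxycycline for 4 days, following 1 day in doxycycline with 20 µM auxinole, an inhibitor of OsTIR1. WT cells at day 4 had the same agents as the degron lines. Whether the day 0 cells had doxycycline or auxinole is not given in the sources used here. The replicates of a degron line are described as different clones, while the labels tie no library to a named clone and nothing is said of the WT replicates, so p-values measure the spread between these samples.

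Libraries held between 15824804 and 25073821 counts on genes. Group medians ran from 16015906 in UHRF1-AID/DNMT1-AID at day 4 to 23912638 in the same line at day 0. The members together took 0.376% to 0.747% of the counts, or 71962 to 156630 counts per library. Within 1 gene, levels are given as TMM-scaled CPM (counts relative to library size), in the order of replicates 1, 2 and 3, and between genes as TPM, which also divides counts by the summed exon length. A gene is called where edgeR's quasi-likelihood test gave a Benjamini-Hochberg adjusted p under 0.05 and a log2 fold change over 1 in size. A gene that passed the filter on low counts through only 1 of the groups compared had to be high in that group, so its calls and p-values are a description; such genes are named below. Errors beside log2 fold changes are approximate standard errors with 3 libraries in each group. Each is the size of the log2 fold change divided by the square root of the F statistic of that test. They are rough where counts are near 0.

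Some libraries stood apart. In WT day 0 replicate 3 and DNMT1-AID day 0 replicates 1 and 2, counts fell with gene length relative to the mean of the other libraries of that day. Spearman coefficients across 15699 genes were -0.273, -0.275 and -0.230. Counts rose with gene length about as much in WT day 0 replicates 1 and 2 (0.308 and 0.289). The same held for UHRF1-AID replicates 1 and 3, at day 0 (0.324 and 0.297) and at day 4 (0.310 and 0.247). No fit left these rising libraries out as a set. The 3 libraries of UHRF1-AID/DNMT1-AID at day 4 had smaller negative values of -0.158, -0.190 and -0.171, and were kept in every fit of that group except where 1 library was left out. File headers name 1 alignment folder for 15 libraries, namely all day 0 libraries and the 3 of UHRF1-AID at day 4. A different folder is named for the other 9 day 4 libraries, which alone held ERCC spike-in counts, from 0.891% to 1.65% of the library. The folders therefore differ along with the groups in UHRF1-AID against WT and against DNMT1-AID at day 4, and in day 4 against day 0 for UHRF1-AID/DNMT1-AID, WT and DNMT1-AID. In those comparisons folder and group cannot be told apart. The other comparisons lie within 1 folder. A difference between the day effects of 2 lines whose libraries cross folders in the same way cancels a folder effect that is alike in both lines. Whether it is alike was not tested.

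The degron acts on protein, and the transcripts of both targets were read first. In WT at day 0 UHRF1 stood at 89.3, 81.2 and 50.1 CPM, with 166, 148 and 193 CPM in UHRF1-AID, 51.6, 47.6 and 107 CPM in DNMT1-AID and 78.6, 172 and 194 CPM in UHRF1-AID/DNMT1-AID. At day 4 UHRF1 was at 17.7, 24.4 and 34.6 CPM in WT, 39.4, 34.7 and 80.7 CPM in UHRF1-AID, 40.1, 37.6 and 33.2 CPM in DNMT1-AID, and 27.3, 52.1 and 57.9 CPM in UHRF1-AID/DNMT1-AID. UHRF1 transcripts were lower at day 4 in all 4 lines, WT included. The day 4 fall passed the test in WT at a log2 fold change of -1.54 (adjusted p = 0.0106), in UHRF1-AID at -1.67 (adjusted p = 0.00231) and in UHRF1-AID/DNMT1-AID at -1.71 (adjusted p = 0.039), and DNMT1-AID had -0.90 without a call. DNMT1 transcripts at day 0 were at 172, 179 and 76.4 CPM in WT, 172, 177 and 191 CPM in UHRF1-AID, 28.9, 30.9 and 73.7 CPM in DNMT1-AID and 77.7, 78.3 and 40.3 CPM in UHRF1-AID/DNMT1-AID. At day 4 they were at 23.8, 24.4 and 46.1 CPM in WT, 36.6, 26.7 and 63.3 CPM in UHRF1-AID, 16.7, 13.2 and 16.4 CPM in DNMT1-AID and 13.6, 14.6 and 9.49 CPM in UHRF1-AID/DNMT1-AID. Here too every line fell by day 4 and was called, at log2 fold changes of -2.20 in WT, -2.39 in UHRF1-AID/DNMT1-AID, -2.05 in UHRF1-AID and -1.53 in DNMT1-AID.

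HCT116 expressed epithelial genes, although several defining genes of the mature gut lining were near 0. Group means of EPCAM ran from 384 to 552 CPM, those of CDH1 from 68 to 146 CPM and those of CDX2 from 16.8 to 53.8 CPM. VIL1, CDH17 and LGALS4 had at most 7, 12 and 18 counts in any library.

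KRT19, KRT8 and KRT18 made up nearly all keratin RNA. These 3 genes held 95.5% to 98.99% of the members' counts in each of the 24 libraries, and on the TPM scale the order KRT19, KRT8, KRT18, KRT23 was the same in all 8 groups. KRT19 averaged 2400 ± 50.1 TPM (SD, n = 3) in WT at day 0, KRT8 940 ± 23.2 TPM, KRT18 566 ± 44.9 TPM and KRT23 25.9 ± 2.29 TPM. The ranges of neighbours among these leading genes did not overlap, except that KRT23 overlapped KRT7, the next in order, in UHRF1-AID/DNMT1-AID at day 0 and KRT20 in DNMT1-AID at day 4. Below them in WT at day 0, KRT15 at 9.93 TPM, KRT7 at 8.36 TPM, KRT20 at 6.21 TPM and KRT80 at 2.97 TPM overlapped each with the next. KRT13 at 0.937 TPM and KRT17 at 0.0521 TPM came last and stood clear of their neighbours.

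The lower part of this order differed between groups. In UHRF1-AID/DNMT1-AID at day 4 KRT20 was the fifth at 33 TPM, followed by KRT7 at 17.4 TPM, then KRT17 at 6.95 TPM, KRT15 at 5.97 TPM, KRT13 at 5.83 TPM and KRT80 at 1.84 TPM; of these KRT17 and KRT15 overlapped the next in order. KRT20 was also the fifth at day 4 in UHRF1-AID at 19.9 TPM and in DNMT1-AID at 39.2 TPM, where KRT15 held that place in WT at 15.8 TPM.

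Before auxin the single-degron lines showed no called keratin. In UHRF1-AID against WT at day 0, edgeR called 0 of the 9 members tested, beside 0% of all 13894 genes; 0 members had an unadjusted p under 0.05, as had 512 of all genes, and DESeq2 called 0 members. In DNMT1-AID against WT at day 0, edgeR called 0 of 9 members beside 0.00723% of 13833 genes; 2 members had an unadjusted p under 0.05, as had 711 of all genes, and DESeq2 called 0 members. KRT17 was not tested in either, having too few counts. The member medians were -0.12 and 0.27 on the log2 scale, with all-gene medians of 0.01 and -0.01. Without the 3 libraries whose counts fell with gene length, a fit chosen after seeing the data, KRT7 alone was called in DNMT1-AID at day 0; it rests on 1 DNMT1-AID library, assumed to vary like the WT libraries.

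In UHRF1-AID/DNMT1-AID against WT at day 0, the contrast in view when KRT23 was included, 3 of 10 members were called beside 1.31% of all genes. KRT7 averaged 87.5 CPM against 10.4 CPM in WT, KRT23 75.3 CPM against 23.2 CPM, and KRT17 1.13 CPM against 0.0536 CPM. KRT17 passed the filter here through UHRF1-AID/DNMT1-AID alone, so its call and the count that holds it are a description. Every comparison that uses these day 0 libraries shares them with that contrast, including the day effects of both lines and the differences between day effects.

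At day 4 several keratins were called against WT in each degron line. UHRF1-AID had 5 of 10 members called beside 6.99% of all genes, with KRT13, KRT17, KRT20 and KRT23 higher and KRT15 lower. DNMT1-AID had 4 of 10 called beside 2.57%, namely KRT7, KRT13, KRT17 and KRT23, all higher. UHRF1-AID/DNMT1-AID had 7 of 10 called beside 11.7%, with KRT7, KRT13, KRT17, KRT20, KRT23 and KRT80 higher and KRT15 lower. All 10 members passed the filter on low counts in each of these comparisons, KRT17 through the degron lines alone. KRT17 could not have passed there without a higher degron group, so counts and medians that include it are a description. The background shares come to 0.699, 0.257 and 1.17 of 10 genes. Over all genes 805, 311 and 1309 were called higher and 170, 38 and 354 lower, so an excess of higher genes is no trait of keratins. The median member log2 fold changes were 1.08, 1.40 and 1.86, with all-gene medians of 0.03, 0.00 and 0.02. The 3 comparisons share the WT day 4 libraries, so their values stand side by side below without a measure of overlap. In UHRF1-AID/DNMT1-AID the libraries lay above those of WT at day 0 already for KRT7, KRT13, KRT17, KRT23 and KRT80. For none of these genes was the day effect of that line called different from that of WT in the direct test below. KRT20 was the higher member called there. The 7 called at day 4 are thus no count of changes since day 0.

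**Figure D1:**
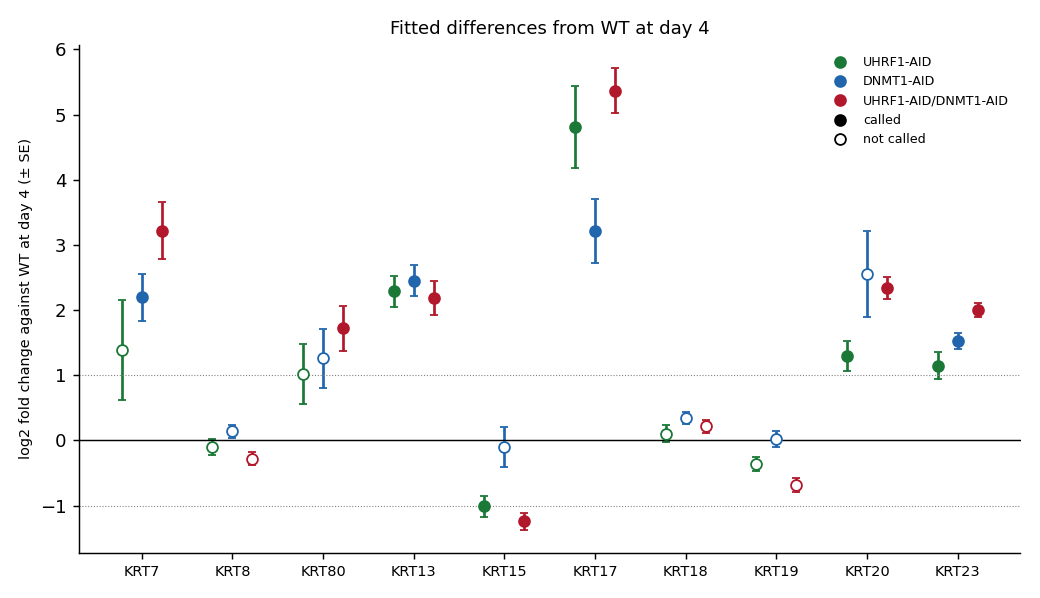
Fitted log2 fold change from WT at day 4 with its standard error for each keratin gene and degron line (filled points called, open points not called, dotted lines at a log2 fold change of 1 in either direction). KRT17 lies farthest from 0 in each line, at 4.81, 3.22 and 5.37.

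Between the degron lines at day 4 the counts of called keratins were near the background shares, which come to 0.531 and 0.684 of 10 genes, and are no result about keratins as a group. In UHRF1-AID against DNMT1-AID, edgeR called 0 of 10 members beside 5.31% of 14080 genes; 5 members had an unadjusted p under 0.05, as had 4373 of all genes. DESeq2 called 1 member there, KRT17. In UHRF1-AID/DNMT1-AID against DNMT1-AID, 1 of 10 members, KRT17, was called higher beside 6.84% of all genes. The median member values were -0.34 and -0.17, with all-gene medians of 0.01 and -0.01.

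Within lines, day 4 against day 0 gave 2 of 9 members called in WT beside 11.9% of all genes, KRT7 and KRT80, both lower. UHRF1-AID had 4 of 10 beside 21.9%, with KRT13, KRT17, KRT20 and KRT23 higher. DNMT1-AID had 3 of 10 beside 15.3%, with KRT13, KRT17 and KRT23 higher. UHRF1-AID/DNMT1-AID had 3 of 10 beside 26.5%, with KRT17 and KRT20 higher and KRT80 lower. Among 9 or 10 members these background shares come to 1.07, 2.19, 1.53 and 2.65 genes, so counts this near to them are no result about keratins as a group. In UHRF1-AID and DNMT1-AID KRT17 passed the filter through day 4 alone. The median member values were 0.23, 0.58, 0.64 and -0.23, and those of all genes were -0.03, 0.02, -0.01 and 0.02.

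The difference between the day effect of a degron line and that of WT was tested directly. For DNMT1-AID 1 of 10 members was called beside 0.139% of all genes, KRT23, with its day effect above that of WT. That count was 5 with no filter on low counts and 0 with all 24 libraries in 1 fit, and 0 or 1 where single libraries were left out. For UHRF1-AID/DNMT1-AID 3 of 10 were called beside 5.41%, KRT20 above the WT day effect and KRT15 and KRT19 below it. The members' medians were 1.21 and -0.11, with all-gene medians of -0.01 and -0.02. For UHRF1-AID, whose libraries share 1 folder while those of WT do not, this difference was not tested.

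Among the type II genes, KRT8, the partner of KRT18 in simple epithelia, lies on chromosome 12 from 52897187 to 52949954 (ENSG00000170421, hg38). At day 4 KRT8 stood at 2327, 2352 and 2458 CPM in WT, 1899, 2341 and 2253 CPM in UHRF1-AID, 2661, 2579 and 2606 CPM in DNMT1-AID and 1990, 1818 and 2054 CPM in UHRF1-AID/DNMT1-AID. At day 0 the last of these lines had 2714, 2717 and 3191 CPM, and the other 9 libraries of day 0 lay between 1609 and 2597 CPM. UHRF1-AID/DNMT1-AID was thus the highest of the day 0 groups and below every WT and DNMT1-AID library after it. KRT8 was not called in any of the 14 comparisons. Apart from the contrast in view, its adjusted p was under 0.05 with a log2 fold change under 1 in size in 4 comparisons, all of UHRF1-AID/DNMT1-AID. These were day 4 against day 0 (-0.57 ± 0.09, adjusted p = 2.82e-05), day 4 against WT (-0.28 ± 0.10, adjusted p = 0.0366) and against DNMT1-AID (-0.43 ± 0.10, adjusted p = 0.00404), and the day effect compared with that of WT (-0.85 ± 0.15, adjusted p = 0.00182). In bulk RNA, fewer cells of a type and less RNA per cell cannot be told apart.

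KRT7, a type II keratin of glandular and ductal epithelia, lies on chromosome 12 from 52232520 to 52252186 (ENSG00000135480). At day 0 KRT7 stood at 9.57, 12.7 and 9.01 CPM in WT, 4.84, 25.2 and 5.14 CPM in UHRF1-AID, 19.2, 10 and 29 CPM in DNMT1-AID and 60.6, 51.4 and 151 CPM in UHRF1-AID/DNMT1-AID. At day 4 it stood at 2.89, 2.73 and 2.78 CPM in WT, 1.91, 16.4 and 3.3 CPM in UHRF1-AID, 6.37, 17.8 and 14.3 CPM in DNMT1-AID and 16.7, 19.8 and 41.7 CPM in UHRF1-AID/DNMT1-AID. Replicate 2 of UHRF1-AID was the high library of its line on both days, and replicate 3 of UHRF1-AID/DNMT1-AID on both days. The WT day 4 libraries lay close together and below every library of UHRF1-AID/DNMT1-AID and DNMT1-AID, while UHRF1-AID overlapped them.

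KRT7 was higher than in WT at day 4 by a log2 fold change of 2.20 ± 0.36 in DNMT1-AID (adjusted p = 0.00799) and 3.22 ± 0.44 in UHRF1-AID/DNMT1-AID (adjusted p = 0.00298). UHRF1-AID had 1.39 ± 0.77 and was not called (adjusted p = 0.258). The UHRF1-AID/DNMT1-AID libraries already lay above WT at day 0. The day effect of that line differed from that of WT by 0.12 ± 0.70 and was not called (adjusted p = 0.955). The DNMT1-AID day effect differed from that of WT by 1.31 ± 0.58, also not called (adjusted p = 0.376). In WT itself KRT7 fell from day 0 to day 4, with a log2 fold change of -1.91 ± 0.20 (adjusted p = 0.000293). In UHRF1-AID/DNMT1-AID the day effect was -1.76 ± 0.65 and not called (adjusted p = 0.074), but there and in UHRF1-AID same-numbered libraries deviated together, and KRT7 was lower at day 4 in each of the 3 pairs of both lines. With the replicate number as a block KRT7 was called in UHRF1-AID/DNMT1-AID (-1.71 ± 0.10, adjusted p = 1.4e-10, range over alternatives 1.4e-10 to 0.187) and not in UHRF1-AID (-0.78 ± 0.21). The DNMT1-AID call was lost without WT day 4 replicate 1 (2.22, adjusted p = 0.0619), without WT day 4 replicate 2 (2.19, adjusted p = 0.0655) and with all 24 libraries in 1 fit (2.20, adjusted p = 0.142), within a range over alternatives from 4.5e-20 to 0.142. The fall in WT was lost with all 24 libraries in 1 fit (-1.89, adjusted p = 0.0893, range 1.72e-12 to 0.0893).

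KRT80, a type II keratin found in many epithelia, lies on chromosome 12 from 52168996 to 52192000 (ENSG00000167767). At day 4 KRT80 stood at 0.707, 1.15 and 0.802 CPM in WT, 0.859, 2.73 and 1.72 CPM in UHRF1-AID, 0.893, 2.5 and 3.04 CPM in DNMT1-AID and 3.26, 3.35 and 2.2 CPM in UHRF1-AID/DNMT1-AID. At day 0 it stood at 3.32, 5.36 and 3.08 CPM in WT and 7.15, 5.46 and 8.55 CPM in UHRF1-AID/DNMT1-AID, and at 1.23 to 4.63 CPM in the single-degron lines. Day 4 libraries of WT were below all its day 0 libraries, and at day 4 only UHRF1-AID/DNMT1-AID stood clear of WT. KRT80 was 1.72 ± 0.35 higher there on the log2 scale (adjusted p = 0.000506). It fell by day 4 in WT at -2.15 ± 0.33 (adjusted p = 0.00166) and in UHRF1-AID/DNMT1-AID at -1.27 ± 0.23 (adjusted p = 7.3e-05). The difference between these day effects was 0.84 ± 0.42 and was not called (adjusted p = 0.204).

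Among the type I genes, KRT18 lies beside KRT8 on chromosome 12, from 52948871 to 52952901 (ENSG00000111057), while the other 6 type I members lie on chromosome 17. KRT18 ranged from 456 CPM in a UHRF1-AID day 0 library to 870 CPM in a UHRF1-AID/DNMT1-AID day 0 library. At day 4 it stood at 641, 655 and 655 CPM in WT, 562, 761 and 715 CPM in UHRF1-AID, 772, 840 and 843 CPM in DNMT1-AID and 756, 704 and 809 CPM in UHRF1-AID/DNMT1-AID. All libraries of the last 2 lines were above all WT libraries, and UHRF1-AID overlapped WT. KRT18 was not called in any of the 14 comparisons. Its adjusted p was under 0.05, apart from the contrast in view, in DNMT1-AID at day 4 against WT (0.34 ± 0.09, adjusted p = 0.0354) and against its own day 0 (0.35 ± 0.12, adjusted p = 0.0454).

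The ratio of KRT8 to KRT18 on the TPM scale was alike in the 4 day 0 groups and lower at day 4 in the degron lines. At day 0 the ratio of TPM averaged 1.67 ± 0.0971 (SD, n = 3) in WT, 1.69 ± 0.0306 in UHRF1-AID/DNMT1-AID, 1.7 ± 0.0781 in UHRF1-AID and 1.72 ± 0.0436 in DNMT1-AID. At day 4 this ratio averaged 1.71 ± 0.0416 in WT, 1.21 ± 0.02 in UHRF1-AID/DNMT1-AID, 1.5 ± 0.0737 in UHRF1-AID and 1.5 ± 0.0954 in DNMT1-AID. The 3 libraries of UHRF1-AID/DNMT1-AID lay between 1.19 and 1.23, below each of the other 21 libraries. The ratio is a description and was not tested. KRT8 and KRT18 share 525 exon bases on opposite strands, which is 7.63% of the exons of KRT8 and 16.3% of those of KRT18. How reads from opposite strands and reads with several matches were assigned is not given in the sources used here, so counts from such stretches are uncertain.

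KRT19, a small type I keratin of simple epithelia, lies from 41523617 to 41528308 on chromosome 17 (ENSG00000171345). At day 0 KRT19 stood at 1662, 1596 and 1944 CPM in WT, 1491, 1568 and 1667 CPM in UHRF1-AID, 2194, 2006 and 2202 CPM in DNMT1-AID and 2156, 2171 and 2337 CPM in UHRF1-AID/DNMT1-AID. At day 4 KRT19 stood at 3575, 3394 and 3442 CPM in WT, 2607, 2912 and 2400 CPM in UHRF1-AID, 3095, 4109 and 3320 CPM in DNMT1-AID and 2127, 1955 and 2383 CPM in UHRF1-AID/DNMT1-AID. Day 4 libraries were above day 0 libraries in WT, UHRF1-AID and DNMT1-AID, and the days overlapped in UHRF1-AID/DNMT1-AID, whose day 4 libraries were below every other day 4 library. The day effect of that line differed from the WT day effect by -1.09 ± 0.15 on the log2 scale (adjusted p = 0.000417). The WT day effect itself was 0.98 ± 0.13, just under the fold threshold (adjusted p = 0.000794). At day 4 UHRF1-AID/DNMT1-AID was -0.68 ± 0.11 from WT (adjusted p = 4.24e-05) and -0.71 ± 0.12 from DNMT1-AID (adjusted p = 0.000358), also under that threshold, while UHRF1-AID was -0.36 ± 0.11 from WT (adjusted p = 0.0503).

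The ratio of KRT19 to KRT18 on the TPM scale rested on the same libraries. It averaged 4.26 in WT, 3.86 in UHRF1-AID/DNMT1-AID, 4.12 in UHRF1-AID and 4.6 in DNMT1-AID at day 0, and 7.35, 3.92, 5.43 and 5.9 in the same order at day 4. The summed TPM of the 3 type II members over that of the 7 type I members averaged, again in that order, 0.316, 0.357, 0.333 and 0.307 at day 0 and 0.203, 0.241, 0.232 and 0.216 at day 4. Type I RNA was in excess in every library, and KRT19 made up 75.7% to 87.6% of the type I TPM.

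KRT15, a type I keratin of basal cells in stratified epithelia, lies from 41513743 to 41522529 on chromosome 17 (ENSG00000171346). At day 4 KRT15 stood at 39.3, 35.2 and 36 CPM in WT, 18.7, 20.4 and 14.4 CPM in UHRF1-AID, 23.9, 51.8 and 27.4 CPM in DNMT1-AID and 13, 17 and 16.5 CPM in UHRF1-AID/DNMT1-AID. At day 0 all 12 libraries lay between 17.3 and 26.1 CPM. WT was thus higher at day 4 than at day 0, and the day 4 libraries of UHRF1-AID and UHRF1-AID/DNMT1-AID were below all of WT, while DNMT1-AID overlapped WT through its high replicate 2.

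KRT15 was lower than in WT at day 4 by a log2 fold change of -1.24 ± 0.13 in UHRF1-AID/DNMT1-AID (adjusted p = 2.81e-07) and -1.01 ± 0.16 in UHRF1-AID (adjusted p = 0.00291). The UHRF1-AID value dropped under the fold threshold without WT day 4 replicate 1 (-0.97) and without UHRF1-AID day 4 replicate 3 (-0.90). DNMT1-AID had -0.10 ± 0.30 (adjusted p = 0.881). The day effect of UHRF1-AID/DNMT1-AID differed from the WT day effect by -1.47 ± 0.18 (adjusted p = 0.000137), where the lines' own day effects were -0.68 and 0.75.

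KRT20, a type I keratin of differentiated cells of the gut lining, lies from 40875941 to 40885227 on chromosome 17 (ENSG00000171431). At day 0 KRT20 stood at 3.96, 2.15 and 4.64 CPM in WT, 3.79, 3.04 and 1.9 CPM in UHRF1-AID, 13.8, 3.56 and 5.11 CPM in DNMT1-AID and 2.06, 3.02 and 5.05 CPM in UHRF1-AID/DNMT1-AID. At day 4 KRT20 stood at 5.4, 3.82 and 4.07 CPM in WT, 8.68, 11.6 and 11.8 CPM in UHRF1-AID, 15.3, 49 and 13.3 CPM in DNMT1-AID and 22.2, 21.2 and 23.7 CPM in UHRF1-AID/DNMT1-AID. Every degron library at day 4 was above every WT library, with DNMT1-AID replicate 2 the highest of all and the 3 libraries of UHRF1-AID/DNMT1-AID close together.

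KRT20 was 2.34 ± 0.17 higher than in WT at day 4 in UHRF1-AID/DNMT1-AID on the log2 scale (adjusted p = 1.02e-09) and 1.30 ± 0.23 higher in UHRF1-AID (adjusted p = 0.0044). The UHRF1-AID call was lost with all 24 libraries in 1 fit (1.27, adjusted p = 0.0772, range 5.41e-06 to 0.0772). DNMT1-AID had 2.55 ± 0.66 and was not called (adjusted p = 0.104). KRT20 rose from day 0 to day 4 in UHRF1-AID/DNMT1-AID at 2.71 ± 0.25 (adjusted p = 4.77e-06) and in UHRF1-AID at 1.92 ± 0.27 (adjusted p = 0.000448). The former day effect exceeded that of WT by 2.37 ± 0.42 (adjusted p = 0.00226).

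KRT23, a less studied type I keratin, lies from 40922696 to 40937634 on chromosome 17 (ENSG00000108244). At day 4 KRT23 stood at 26.7, 20.9 and 25.5 CPM in WT, 39.1, 69.1 and 49.8 CPM in UHRF1-AID, 74.9, 63.6 and 71.9 CPM in DNMT1-AID and 101, 90.8 and 101 CPM in UHRF1-AID/DNMT1-AID. At day 0 KRT23 stood at 20.8, 24 and 24.7 CPM in WT, 21.3, 38.8 and 19.4 CPM in UHRF1-AID, 33.3, 33.3 and 28.1 CPM in DNMT1-AID and 67.3, 63.5 and 95 CPM in UHRF1-AID/DNMT1-AID. Every degron library at day 4 was above every WT library. The libraries of day 0 and day 4 overlapped in WT and in UHRF1-AID/DNMT1-AID. Replicate 2 was again the high library of UHRF1-AID on both days.

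KRT23 was higher than in WT at day 4 by a log2 fold change of 1.15 ± 0.21 in UHRF1-AID (adjusted p = 0.00629), 1.53 ± 0.12 in DNMT1-AID (adjusted p = 2.38e-06) and 2.00 ± 0.11 in UHRF1-AID/DNMT1-AID (adjusted p = 1.48e-11). In UHRF1-AID/DNMT1-AID KRT23 already lay above WT at day 0, the contrast in view when the gene was included. The day effect of that line differed from that of WT by 0.26 ± 0.20 and was not called (adjusted p = 0.434). Without UHRF1-AID day 4 replicate 2 the value of UHRF1-AID was 0.87, under the fold threshold. KRT23 rose from day 0 to day 4 in DNMT1-AID at 1.15 ± 0.13 (adjusted p = 9.17e-05) and in UHRF1-AID at 1.03 ± 0.30 (adjusted p = 0.0193). The UHRF1-AID rise was lost with all 24 libraries in 1 fit (0.99), and without UHRF1-AID day 0 replicate 1 (0.90, adjusted p = 0.06), day 0 replicate 3 (0.84, adjusted p = 0.0631) or day 4 replicate 2 (0.77, adjusted p = 0.0999), within a range from 5.17e-08 to 0.0999. With the replicate number as a block it was 1.06 ± 0.14 (adjusted p = 0.000434). In UHRF1-AID/DNMT1-AID the day effect with that block was 0.38 ± 0.09, under the fold threshold (adjusted p = 0.00186). KRT23 was higher at day 4 in each same-numbered pair of both lines.

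The DNMT1-AID day effect of KRT23 exceeded that of WT by 1.10 ± 0.18 (adjusted p = 0.027), a comparison that shares the WT day 0 libraries with the contrast in view when the gene was included. The call was lost with all 24 libraries in 1 fit (adjusted p = 0.118). It was also lost without WT day 0 replicate 2 (1.07, adjusted p = 0.101), DNMT1-AID day 0 replicate 1 (1.12, adjusted p = 0.0675), WT day 4 replicates 1 (1.16, adjusted p = 0.0552), 2 (0.99, adjusted p = 0.115) or 3 (1.13, adjusted p = 0.0619), and DNMT1-AID day 4 replicates 1 (1.04, adjusted p = 0.103) or 3 (1.08, adjusted p = 0.107). The range over all alternatives was 8.08e-05 to 0.118.

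KRT13, a type I keratin of mucosal stratified epithelia, lies from 41500981 to 41505705 on chromosome 17 (ENSG00000171401). At day 0 KRT13 stood at 0.733, 0.664 and 1.18 CPM in WT, 1.1, 0.669 and 0.395 CPM in UHRF1-AID, 2.17, 1.25 and 1.54 CPM in DNMT1-AID and 2.19, 5.58 and 16.1 CPM in UHRF1-AID/DNMT1-AID. At day 4 KRT13 stood at 1.54, 1.33 and 1.23 CPM in WT, 6.01, 6.93 and 6.77 CPM in UHRF1-AID, 7.44, 8.34 and 6.61 CPM in DNMT1-AID and 6.77, 5.03 and 6.85 CPM in UHRF1-AID/DNMT1-AID. The 9 degron libraries of day 4 overlapped each other and were all above WT. UHRF1-AID/DNMT1-AID spread widely at day 0, with replicate 3 the highest of the 24 libraries.

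KRT13 was higher than in WT at day 4 by 2.29 ± 0.24 on the log2 scale in UHRF1-AID (adjusted p = 0.000306), 2.45 ± 0.24 in DNMT1-AID (adjusted p = 1.72e-05) and 2.18 ± 0.26 in UHRF1-AID/DNMT1-AID (adjusted p = 1.36e-06). It rose from day 0 in UHRF1-AID at 3.24 ± 0.34 (adjusted p = 8.97e-05) and in DNMT1-AID at 2.16 ± 0.27 (adjusted p = 0.000193). In UHRF1-AID it passed the filter through day 4 alone. The DNMT1-AID day effect exceeded that of WT by 1.51 ± 0.40, which was not called (adjusted p = 0.181). The UHRF1-AID/DNMT1-AID day effect differed from that of WT by -1.08 ± 0.92, not called either (adjusted p = 0.506).

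KRT17, a type I keratin of skin appendages that wounded epidermis also makes, lies from 41619441 to 41624842 on chromosome 17 (ENSG00000128422). At day 0 KRT17 stood at 0.0488, 0 and 0.112 CPM in WT, 0.0998, 0.154 and 0.158 CPM in UHRF1-AID, 0, 0 and 0.289 CPM in DNMT1-AID and 1.14, 1.09 and 1.15 CPM in UHRF1-AID/DNMT1-AID. At day 4 KRT17 stood at 0.193, 0.182 and 0.185 CPM in WT, which is 3 counts in each library, 1.91, 7.25 and 6.73 CPM in UHRF1-AID, 2.2, 1.22 and 1.98 CPM in DNMT1-AID and 9.65, 8.06 and 6.24 CPM in UHRF1-AID/DNMT1-AID. All degron libraries at day 4 were above WT, UHRF1-AID/DNMT1-AID lay above DNMT1-AID, and UHRF1-AID overlapped DNMT1-AID through its low replicate 1 and UHRF1-AID/DNMT1-AID through replicates 2 and 3.

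With so few WT counts, the ratio of summed counts at day 4 is given with its 95% counting interval. That ratio to WT was 28.2 (14.7 to 62.3) in UHRF1-AID, 9.65 (4.86 to 21.8) in DNMT1-AID and 42.8 (22.3 to 94.2) in UHRF1-AID/DNMT1-AID. The fitted log2 fold changes, which here depend on the prior count, were 4.81 ± 0.63 (adjusted p = 0.00156), 3.22 ± 0.49 (adjusted p = 0.000872) and 5.37 ± 0.35 (adjusted p = 2.12e-10). Since KRT17 passed the filter here through the degron groups alone, these p-values are a description. UHRF1-AID/DNMT1-AID exceeded DNMT1-AID by 2.14 ± 0.26 at day 4 (adjusted p = 1.38e-05). UHRF1-AID differed from DNMT1-AID by 1.56 ± 0.48, not called by edgeR (adjusted p = 0.0598).

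KRT17 rose from day 0 to day 4 in UHRF1-AID/DNMT1-AID at 2.81 ± 0.24 on the log2 scale (adjusted p = 9.35e-09). That day effect differed from the WT one by 1.06 ± 1.04, which was not called (adjusted p = 0.6). With so few WT counts this difference depends on the prior count. In UHRF1-AID the ratio of summed counts between days was 37.9 (95% interval 19.7 to 83.5) and the fitted log2 fold change 5.23 ± 0.63 (adjusted p = 0.000209). In DNMT1-AID the ratio was 18 (7.94 to 50.4) and the fitted value 4.08 ± 0.80 (adjusted p = 0.00292). In these 2 lines the filter was passed through day 4 alone, so the p-values are again a description. Of the DNMT1-AID day 0 libraries replicate 3 alone had counts; without it the fitted log2 value was 7.98, against a group at 0. Without replicates 1 and 2 the fitted fold was 6.06, where it was 16.9 with all libraries. KRT17 was called in 8 of the 14 comparisons, counting the contrast in view, KRT23 in 7, KRT13 and KRT20 in 5 each, KRT7 in 4, KRT15 and KRT80 in 3 each and KRT19 in 1.

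The set of RefSeq promoter sequences used here (GRCh38.p14) held 2 of the 10 members, KRT8 and KRT20. They are shown because the degron lines remove proteins that keep CG sites methylated. Each window of 300 bases lies on the minus strand around the start that RefSeq gives, at chr12:52926420-52926719 for KRT8 and chr17:40885193-40885492 for KRT20. The KRT8 window lies inside the gene as the count files annotate it, away from its 5' end at 52949954, so it shows 1 start and need not be the one used in these cells. Capitals mark CG.
KRT8: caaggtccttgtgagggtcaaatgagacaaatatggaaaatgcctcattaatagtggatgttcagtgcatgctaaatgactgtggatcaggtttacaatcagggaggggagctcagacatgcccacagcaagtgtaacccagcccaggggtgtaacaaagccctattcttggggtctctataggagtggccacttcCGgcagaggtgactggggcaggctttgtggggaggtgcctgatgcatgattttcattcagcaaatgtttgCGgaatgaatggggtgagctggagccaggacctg
KRT20: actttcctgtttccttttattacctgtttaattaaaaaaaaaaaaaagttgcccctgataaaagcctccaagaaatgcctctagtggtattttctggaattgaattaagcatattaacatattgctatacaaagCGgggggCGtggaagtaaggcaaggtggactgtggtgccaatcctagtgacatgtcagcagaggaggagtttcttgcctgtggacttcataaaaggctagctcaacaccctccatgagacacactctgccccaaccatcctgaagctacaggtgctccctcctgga

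Each of these windows holds 2 CG, where 35116 promoters of this length had a median of 14 and 18.2% had at most 2. CG occurs in 96% of those promoters. The letters TATAAA on either strand occur in neither window and in 11.5% of all promoters. KRT7, KRT13, KRT15, KRT17, KRT18, KRT19, KRT23 and KRT80 are named only.

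Named pseudogenes were counted as well. The 51 of KRT8 had 22 to 88 counts per library, or 0.0567% to 0.216% of the counts on KRT8 and its pseudogenes, and the 67 of KRT18 had at most 12 counts. The 8 of KRT17 had 0 to 2 counts, which is 0% to 100% of the counts on KRT17 and its pseudogenes. The share of 100% is WT day 0 replicate 2, with 2 counts on pseudogenes and 0 on KRT17, and in every day 4 library the pseudogenes had 0. The 5 of KRT19 had 0. Antisense transcripts shared 282 exon bases with KRT7, 476 with KRT13 and 186 with KRT23, and had at most 2, 0 and 10 counts in any library.

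Outside the 10 members the files hold 45 further keratin genes, of which 9 passed the filter in at least 1 comparison, 19 had at most 3 counts in every library and 5 had 0 throughout. Against WT at day 4, 3 of 7 tested were called in UHRF1-AID, 2 of 7 in DNMT1-AID and 5 of 8 in UHRF1-AID/DNMT1-AID, all higher, beside 6.99%, 2.57% and 11.7% of all genes. Of these calls only those of KRT32 were of a gene that passed the filter in WT as well, so the others are a description. KRT12, a keratin of the cornea, had 0, 2 and 1 counts in WT at day 4, 117, 154 and 138 counts in UHRF1-AID, 29, 59 and 31 counts in DNMT1-AID and 167, 163 and 175 counts in UHRF1-AID/DNMT1-AID. At day 0 no library of any line had more than 5 counts. The ratio of KRT12 to WT at day 4 by summed counts was 106 (95% interval 36 to 516) in UHRF1-AID, 39.6 (13.2 to 195) in DNMT1-AID and 170 (57.8 to 827) in UHRF1-AID/DNMT1-AID. KRT12 also differed between degron lines, with UHRF1-AID over DNMT1-AID at 1.43 ± 0.31 (adjusted p = 0.0164) and UHRF1-AID/DNMT1-AID over DNMT1-AID at 2.09 ± 0.24 (adjusted p = 6.76e-06). KRT40 was called in UHRF1-AID/DNMT1-AID over DNMT1-AID as well, at 2.00 ± 0.51 (adjusted p = 0.00949). It had 5 counts in each DNMT1-AID library, so that call is a description.

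KRT81, a hair keratin, had 11, 6 and 7 counts in WT at day 4, 34, 119 and 24 counts in UHRF1-AID, 26, 126 and 33 counts in DNMT1-AID and 69, 60 and 88 counts in UHRF1-AID/DNMT1-AID, with replicate 2 the high library in both single-degron lines. It was called in UHRF1-AID at 2.59 ± 0.74 (adjusted p = 0.0471) and in UHRF1-AID/DNMT1-AID at 3.17 ± 0.35 (adjusted p = 4e-07). KRT32 averaged 1.65 CPM in WT, 5.37 CPM in UHRF1-AID, 6.49 CPM in DNMT1-AID and 6.43 CPM in UHRF1-AID/DNMT1-AID at day 4, and 3.78 CPM in WT at day 0. It was called in all 3 lines, at 1.73 ± 0.26 (adjusted p = 0.00217), 1.97 ± 0.36 (adjusted p = 0.00503) and 1.96 ± 0.25 (adjusted p = 2.95e-06), and fell in WT from day 0 to day 4 (-1.20 ± 0.30, adjusted p = 0.0135). KRT34 and KRT40 were called in UHRF1-AID/DNMT1-AID against WT, KRT34 at 1.76 ± 0.42 (adjusted p = 0.00233) and KRT40 with a summed count ratio of 15.4 (95% interval 5.72 to 58.3).

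From day 0 to day 4 all calls of higher keratins among these genes were of genes that passed the filter through day 4 alone, and are a description. KRT12 was higher in the 3 degron lines. The increase was at least 47.1-fold in UHRF1-AID, whose day 0 libraries had 0 counts (floor of 3 counts per library). By summed counts the ratio was 49.2 (95% interval 16.4 to 242) in DNMT1-AID and 82.2 (42.9 to 181) in UHRF1-AID/DNMT1-AID. KRT81 was higher as well, by a ratio of 12.3 (7.26 to 22.4) in UHRF1-AID, by 2.64 ± 0.76 on the log2 scale in DNMT1-AID (adjusted p = 0.0286) and by 2.34 ± 0.39 in UHRF1-AID/DNMT1-AID (adjusted p = 9.23e-05). In UHRF1-AID/DNMT1-AID KRT40 was higher by a ratio of 7.45 (3.97 to 15.2) and KRT34, at 0 counts on day 0, by at least 17.5-fold. KRT16, a keratin of stressed epidermis, was higher in UHRF1-AID at 1.47 ± 0.52 (adjusted p = 0.0401), where the libraries of the 2 days overlapped, and in DNMT1-AID at 2.25 ± 0.68 (adjusted p = 0.0229), and KRT222 fell in DNMT1-AID at -1.19 ± 0.36 (adjusted p = 0.0237). KRT10, a keratin of the upper epidermis and the most abundant of these 9 genes by CPM, had group means of 54.1 to 101 CPM and was not called. KRT31 passed the filter and was not called either.

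Of 20 desmosome, plakin and partner genes, which anchor keratin filaments, 15 were tested against WT at day 4. In this list edgeR called 0 in UHRF1-AID and 0 in DNMT1-AID, beside 6.99% and 2.57% of all genes. Of the list 2 and 3 had an unadjusted p under 0.05, as had 4608 of 13958 and 3280 of 13582 genes, and the medians were -0.19 and 0.53. In UHRF1-AID/DNMT1-AID 1 gene was called higher and 1 lower, beside 11.7% of all genes, a count near that share. EPPK1, a plakin, was higher at 2.35 ± 0.51 (adjusted p = 0.025) and DSC3, a desmosomal cadherin, lower at -1.19 ± 0.15 (adjusted p = 3.15e-06). Of the 15 genes 6 had an unadjusted p under 0.05, as had 6669 of all 14219 genes. The list median was 0.21 beside 0.02 for all genes. Between UHRF1-AID and DNMT1-AID at day 4, 4 of 15 were called lower in UHRF1-AID, beside 5.31% of all genes called in either direction. Among them was PLEC, the linker plectin, at 115 against 727 CPM, which at -2.65 ± 0.46 had an adjusted p of 0.0125. PLEC varied widely between WT libraries of day 4, at 305 ± 239 CPM (SD, n = 3). In this comparison folder and group cannot be told apart. DST, a plakin of hemidesmosomes, fell from day 0 to day 4 in all 4 lines, at -2.40 in WT, -2.13 in UHRF1-AID/DNMT1-AID, -1.65 in UHRF1-AID and -1.29 in DNMT1-AID.

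Of 16 other intermediate filament genes, 10 were tested in UHRF1-AID and in DNMT1-AID against WT at day 4 and 11 in UHRF1-AID/DNMT1-AID, with 2, 1 and 4 called higher and 0, 0 and 1 lower, beside 6.99%, 2.57% and 11.7% of all genes. Higher genes were also in excess among all genes called, so the excess is no trait of this list. The list medians were 0.38, 0.14 and 0.92. DES, the desmin of muscle, averaged 3.94 CPM in WT, 18.2 CPM in UHRF1-AID, 7.95 CPM in DNMT1-AID and 17.7 CPM in UHRF1-AID/DNMT1-AID, and was called at 2.23 ± 0.22 (adjusted p = 0.000201), 1.01 ± 0.22 (adjusted p = 0.00928) and 2.17 ± 0.18 (adjusted p = 1.07e-08). VIM, the vimentin of mesenchymal cells, averaged 0.855 CPM in WT, 3.89 CPM in UHRF1-AID and 6.99 CPM in UHRF1-AID/DNMT1-AID, called at 2.22 ± 0.48 (adjusted p = 0.0143) and 3.03 ± 0.43 (adjusted p = 0.000197). In UHRF1-AID/DNMT1-AID LMNB1, lamin B1 of the nuclear envelope, was lower at -1.03 ± 0.11 (adjusted p = 3.05e-07), NEFH was at least 4.82-fold higher against WT libraries at 0 (floor of 3 counts per library), and SYNM was higher at 1.25 ± 0.44 (adjusted p = 0.0302). VIM and SYNM in this last comparison were named after their values were seen. VIM, NEFH and SYNM passed the filter through the degron groups alone, so their calls are a description. LMNB1 fell from day 0 to day 4 in each line, at -1.29 in WT, -2.47 in UHRF1-AID/DNMT1-AID, -1.62 in UHRF1-AID and -1.55 in DNMT1-AID.

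Among 12 transcription factors and splicing regulators of gut and other epithelia, CDX1 and CDX2, the intestinal homeobox factors, were the genes called against WT at day 4. These were 1 of 10 tested in UHRF1-AID and 2 of 10 in UHRF1-AID/DNMT1-AID, beside 6.99% and 11.7% of all genes, counts near the background. CDX1 had 0 counts in WT and passed the filter through the degron groups alone, so its calls are a description. It averaged 0.895 CPM in UHRF1-AID, at least 4.8-fold higher, and 1.84 CPM in UHRF1-AID/DNMT1-AID, at least 9.86-fold higher. CDX2 averaged 21.6 CPM in WT and 53.8 CPM in UHRF1-AID/DNMT1-AID, a log2 difference of 1.32 ± 0.12 (adjusted p = 3.33e-08). In DNMT1-AID edgeR called 0 of 9, with 5 at an unadjusted p under 0.05, beside 2.57% of all genes called and 3280 of 13582 at an unadjusted p under 0.05. List medians were -0.24, 0.23 and -0.27. ELF3, an epithelial ETS factor, fell from day 0 to day 4 in all 4 lines, at -1.28 in WT, -1.92 in UHRF1-AID/DNMT1-AID, -1.59 in UHRF1-AID and -1.04 in DNMT1-AID.

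Of 20 markers of intestinal epithelium few had enough counts to be tested. Against WT at day 4, UHRF1-AID had 3 of 6 tested called higher and 1 lower, DNMT1-AID had 1 of 4 called higher, and UHRF1-AID/DNMT1-AID had 4 of 7 called higher and 1 lower, beside 6.99%, 2.57% and 11.7% of all genes. The genes tested differ between these comparisons, since TFF3, ANPEP, LGALS4 and CEACAM1 did not pass the filter through WT. The counts and the calls of these genes are a description. TFF3, a goblet cell peptide, had 0 counts in WT and averaged 1.82 CPM in UHRF1-AID, at least 9.77-fold higher, and 2.24 CPM in UHRF1-AID/DNMT1-AID, at least 12-fold higher. ANPEP, a brush border peptidase also at 0 in WT, averaged 1.41 CPM in UHRF1-AID, at least 7.54-fold higher, and 2.92 CPM in UHRF1-AID/DNMT1-AID, at least 15.6-fold higher. CA2, a carbonic anhydrase, was lower in both at -2.03 (adjusted p = 0.000392 and 3.46e-05), with 25.9 CPM in WT. The remaining calls, named after their values were seen, were LGALS4 in UHRF1-AID/DNMT1-AID, at least 4.7-fold higher, and CEACAM1, a cell adhesion protein, in UHRF1-AID at 1.89 ± 0.49 (adjusted p = 0.0278) and UHRF1-AID/DNMT1-AID at 1.77 ± 0.52 (adjusted p = 0.0134). CEACAM1 was also the gene called in DNMT1-AID, at 2.08 ± 0.37 (adjusted p = 0.0024).

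Most squamous differentiation genes had few or 0 counts. Of 18 such genes 3 were tested and 10 to 14 had 0 counts in each day 4 library. The most abundant was SFN, the 14-3-3 protein stratifin, which rose from 224 CPM at day 0 to 562 CPM at day 4 in WT (1.31 ± 0.14, adjusted p = 0.000346) and from 217 to 436 CPM in UHRF1-AID (1.04 ± 0.16, adjusted p = 0.000597). The other lines had 0.93 ± 0.16 (DNMT1-AID, 325 and 623 CPM, adjusted p = 0.00133) and 0.48 ± 0.08 (UHRF1-AID/DNMT1-AID, 296 and 415 CPM, adjusted p = 2.34e-05), under the fold threshold. CSTA, a protease inhibitor of the cornified envelope, was lower than in WT at day 4 in UHRF1-AID at -1.79 ± 0.38 (adjusted p = 0.0168) and in UHRF1-AID/DNMT1-AID at -1.07 ± 0.16 (adjusted p = 1.89e-05), and no other gene of the list was called against WT. The list medians against WT were -0.43 in UHRF1-AID/DNMT1-AID, -0.33 in UHRF1-AID and -0.07 in DNMT1-AID.

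Markers of other cell types were low and some moved with the degron lines. The summed CPM of 6 fibroblast markers was 3.34 to 9.01 in WT at day 4, 4.57 to 11.6 in UHRF1-AID, 9.32 to 14.1 in DNMT1-AID and 16.6 to 20.7 in UHRF1-AID/DNMT1-AID, most of it COL1A1, which was higher in the last line at 1.64 ± 0.30 (adjusted p = 0.00278). The summed CPM of 4 immune markers was 0 to 0.0642 in WT at day 4, 0.768 to 1.67 in UHRF1-AID, 0.0595 to 0.396 in DNMT1-AID and 0.839 to 1.75 in UHRF1-AID/DNMT1-AID. In the last line CD14 was the most abundant and at least 5.48-fold higher than in WT, having passed the filter through that line alone, and 1 or 2 of the 4 markers were at 0 counts in each library. The 3 endothelial markers summed to 0 to 1.94 CPM over the 24 libraries, led by VWF or PECAM1, and none passed the filter against WT at day 4. The part of other cell types in the keratin values was not tested.

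KRT17, KRT23 and KRT20 were taken for a search of similar genes by a rule fixed before the files were read, the number of calls and then the mean CPM. That number counts the contrast in view and calls given above as a description, so the choice of these 3 is no finding. For them the genes with the most similar levels over the 24 libraries were taken from the 15699 genes expressed across the 8 groups, by Pearson's r of log2(CPM + 1). KRT17 was most like STAP2 (0.967), ARL11 (0.966) and ESPNL (0.965), KRT23 most like GARIN5A (0.927), TNFSF9 (0.895) and UNC13D (0.889), and KRT20 most like MPO (0.900), HLA-DPB1 (0.884) and NXT2 (0.882). The libraries fall into groups that share line and day, so these values rank genes and carry no p.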

How the data were processed

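The authors aligned polyA RNA-seq reads with STAR to hg38 and counted them per gene with featureCounts; each deposited file gives a raw count per gene and library, and strand and multi-mapping settings are not given in the sources used here. The members and gene lists were chosen with earlier results of these data known. All 58735 genes were analysed in R 4.3.3 with edgeR 4.0.16 (filterByExpr, TMM, robust quasi-likelihood fit, Benjamini-Hochberg over all genes tested) and limma 3.58.1, using only the libraries compared. Each of the 14 comparisons was repeated with DESeq2 1.42.0, RLE scaling, no filter, a minimum of 10 counts, all 24 libraries, a replicate block, other thresholds and each library left out. Leaving out the libraries with a length trend, here only the 3 day 0 libraries whose counts fell with gene length, was chosen after seeing the data. Same-numbered replicates were checked for pairing in 12 comparisons; correlations ran from -0.781 to 0.391 and all 3 exceeded 0.1 in 2 comparisons, day 4 against day 0 in UHRF1-AID and in UHRF1-AID/DNMT1-AID, which were taken as paired from these values. Python 3.11.15, pandas 2.3.3 and scipy 1.17.1 made the summaries. Counting intervals (exact binomial, 95%) and the floor of 3 counts per library cover counting error only. Named genes are all members, other keratins passing the filter, up to 3 called genes per list and comparison by smallest p, and the 3 genes most like each of 3 members. The pipeline was tested on simulated data. 1 marker gene of the lists is not reported here.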

Additional observations from a re-analysis of the deposited data

Results flagged for a closer look

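Day effects that differed between a degron line and WT by the direct edgeR test are listed here with their log2 difference. In DNMT1-AID KRT23 differed by 1.10, a call that did not hold in several other fits. In UHRF1-AID/DNMT1-AID the members KRT15 (-1.47), KRT19 (-1.09) and KRT20 (2.37) differed, as did the hair keratins KRT81 (2.71, adjusted p = 0.0166) and KRT32 (1.18, adjusted p = 0.0291). Of the other intermediate filament genes VIM (1.99), LMNB1 (-1.22), DES (2.22) and INA (10.31) differed, and of the intestinal markers LGALS4 (7.76). The values of INA and LGALS4 depend on the prior count, since 1 or more groups were at 0, and are no bound. KRT81, INA and LGALS4 passed the filter on low counts through UHRF1-AID/DNMT1-AID at day 4 alone, where they are high, so their calls are a description. VIM was lower in WT at day 4 than at day 0 (-1.88, adjusted p = 0.00276), having passed the filter there through day 0 alone, and LMNB1 fell in both lines. INA was named after its value was seen. Counts on ERCC spike-ins, which the comparisons do not use, reached 1.65% of a library in the 9 day 4 libraries that held them and were 0 in the other 15.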

How the results depend on the processing

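The 33 called pairs of a member and a comparison outside UHRF1-AID/DNMT1-AID against WT at day 0, whose 3 called members were not followed gene by gene, kept their direction in every fit run, with 0 reversed. The call itself held in 255 of 263 values under other settings and in 207 of 222 fits that left out 1 library. Among the settings, no minimum fold change and an adjusted p under 0.01 only moved the cut-off on the main fit. With no minimum fold change a call could not be lost, so the 255 includes values fixed in advance. Under the settings listed next, the number of members called differed from the value above by more than 1.5 times. Smaller differences are not listed, and the cause was not tested. With no filter on low counts 1 was called in UHRF1-AID against DNMT1-AID (day 4) and 5 for the DNMT1-AID day effect against that of WT. With all 24 libraries in 1 fit these were 1 and 0, and it was 2 in UHRF1-AID/DNMT1-AID against DNMT1-AID at day 4. With a replicate block they were 2 for the latter and 0 for the DNMT1-AID day effect against that of WT. DESeq2 gave 2 for UHRF1-AID/DNMT1-AID against DNMT1-AID and 1 for UHRF1-AID against DNMT1-AID. Where same-numbered libraries deviated together, in the day effects of UHRF1-AID and of UHRF1-AID/DNMT1-AID, the block added KRT7 in the latter and changed no other call of a member. With no minimum fold change it was 5 in UHRF1-AID/DNMT1-AID against WT at day 0, 4 against DNMT1-AID at day 4, and 5, 5 and 4 for the day effects of UHRF1-AID/DNMT1-AID, DNMT1-AID and WT. At an adjusted p under 0.01 it was 1 in UHRF1-AID/DNMT1-AID against WT at day 0 and 0 for the DNMT1-AID day effect against that of WT. Without the libraries with a length trend it was 1 in DNMT1-AID against WT at day 0. Over the 96 fits that left out 1 library, the count ran from 0 to 0 in both single-degron lines at day 0, 1 to 4 in UHRF1-AID/DNMT1-AID at day 0, 4 to 6, 3 to 5 and 7 to 7 against WT at day 4 (UHRF1-AID, DNMT1-AID, then both degrons), 0 to 1 and 1 to 2 against DNMT1-AID at day 4, 2 to 3, 3 to 4, 3 to 4 and 3 to 3 for the day effects, and 0 to 1 and 3 to 3 for their differences from WT. The order of member TPM was the same in 80 of 80 places with pseudogene counts added and with TMM-scaled RPKM. Both keep the gene lengths, so other lengths were not tried. TMM-scaled RPKM differs from TPM by 1 factor per library, so the order within a library could not change. Pseudogene counts were few, so the 80 places are little of a test. Levels relative to WT at day 0 stayed within 1 SD in 64 of 70 values with pseudogene counts and 51 of 70 with TMM-scaled RPKM. Depth limits KRT17, KRT12 and the list genes with few WT counts, where a fold rests on a handful of counts; other keratins and list genes were not refitted without single libraries.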
